A study of Arabidopsis thaliana with 12 samples.

Results

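Flowers pass through an ordered series of transcript changes as they mature from young buds to open flowers, and the course of these changes was compared between wild-type Arabidopsis thaliana (Columbia) and the arf6 arf8 double mutant. The course was read from 6 of the 12 arrays of the study, 1 array for each genotype at flower stages 1-10, 11-12 and 13-14. The plants were untreated, had grown for 6 weeks in long days and carried no other named allele or transgene in the labels. The other 6 arrays held stems, which were not used here, and flowers of plants titled arf6/arf6 ARF8/arf8. These plants keep a single functional copy of both genes together, are called single-copy plants here and served only as a side comparison. Each array stands for a pool of flowers over a range of stages, no group had a second array, and the sources used here do not say how stages were assigned to mutant flowers.

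ARF6 and ARF8 encode auxin response factors, transcription factors through which the hormone auxin switches genes on. They act together late in flower development, when petals and stamen filaments elongate, nectaries begin to secrete, the stigma matures and anthers shed pollen, and they are known to promote the production of the hormone jasmonate in flowers. Flowers that lack both factors are known to arrest as closed, infertile buds. Over the same stages anthers lose the tapetum, the nurse layer that feeds developing pollen, and pollen turns on its own late genes.

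A change was measured as the difference of log2(signal + 50) between neighbouring stages, from stage 1-10 to 11-12 (step 1) and from stage 11-12 to 13-14 (step 2). A probe set, the group of oligonucleotides that reports on a transcript, was said to move when it changed by at least 1 on this scale, a 2-fold change of signal + 50, with a signal of 200 or more on the brighter array. A course was called flat when the change stayed below 0.5 in both steps and from the first stage to the last. Of 22746 probe sets, 16931 reached a signal of 100 on at least 1 of the 6 arrays and were kept. Of these, 9360 belong to 1 gene in the platform's probe table, and 0 probe sets are listed for ARF6 or ARF8, so the mutated genes themselves were not analysed here.

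The 6 arrays were alike in overall level. Their median signals lay between 212.4 and 235.3, and the share of probe sets at a signal of 100 or higher ran from 64.5% to 66.6%. The wild-type stage 11-12 array had the highest ratios of 3′ to 5′ control signal, 1.5 for GAPDH and 7.09 for actin, against 0.939 to 1.39 and 4.96 to 5.56 on the other 5. The median change over all kept probe sets was -0.13 in wild-type step 1, 0.00 in wild-type step 2, -0.06 in arf6 arf8 step 1 and 0.04 in arf6 arf8 step 2, and each change is to be read beside these shifts. The summed signal of 13 regulators of floral organ identity and growth lay between 3440 and 6748 on the wild-type arrays and between 3276 and 4137 on those of arf6 arf8, so markers of floral tissue were present in both.

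Both genotypes changed about as many transcripts in total, but arf6 arf8 changed most of them in step 1 and few upward in step 2. In wild-type, 923 probe sets moved up (5.45% of those kept) and 441 moved down (2.6%) in step 1, and 524 moved up (3.09%) and 497 moved down (2.94%) in step 2. In arf6 arf8, 953 moved up (5.63%) and 683 down (4.03%) in step 1, but 165 moved up (0.975%) and 379 down (2.24%) in step 2. At least 1 move was seen in 1997 probe sets of wild-type and 1925 of arf6 arf8, and 8199 (48.4%) and 8516 (50.3%) had a flat course. With 1 array for each stage and genotype these counts have no replicate check, and in whole flowers a smaller number of cells of a type and less RNA per cell cannot be told apart.

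**Figure D1:**
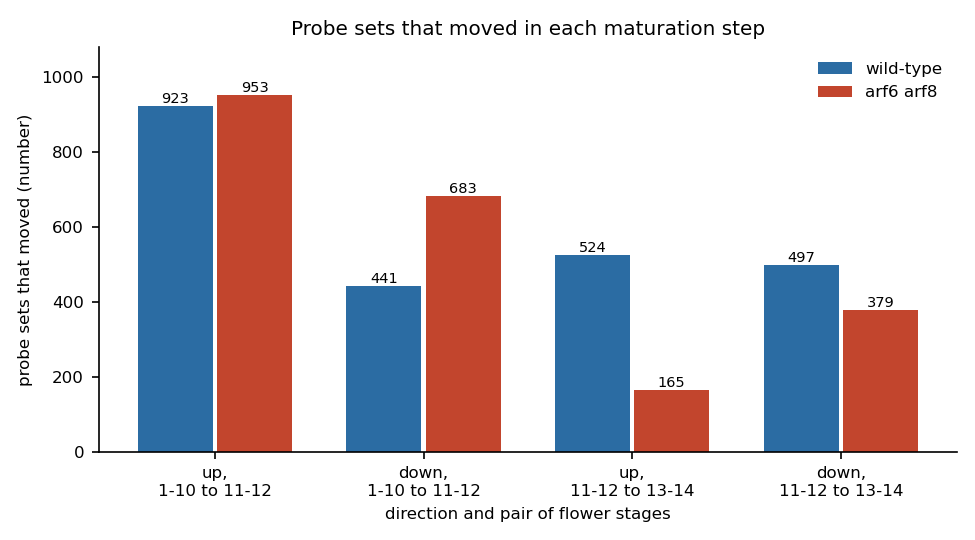
Number of kept probe sets (of 16931) that moved at least 2-fold up or down in each step, in wild-type (blue) and arf6 arf8 (red), 1 array per genotype and stage. Upward moves from stage 11-12 to 13-14 number 524 in wild-type and 165 in arf6 arf8, whereas the other bars of the mutant range from 379 to 953.

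The difference between the courses was tested by taking the 2 older stages of a genotype together against its stage 1-10 array (limma, 1 residual degree of freedom, Benjamini-Hochberg adjustment over 16931 probe sets, two-sided). By this test 0 probe sets (0.0%) passed an adjusted p of 0.05, with 2873 at an unadjusted p under 0.05 and a smallest adjusted p of 0.132. A model that takes the course as linear over the stages, with a curve shared by both genotypes, called 347 probe sets (2.05%), 82 with a higher and 265 with a lower slope in arf6 arf8. The classes that follow are therefore descriptions by size of change, and the test's values are given for the genes where they are smallest.

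Of the transcripts that moved in wild-type step 1, about as many made the same move in step 1 of the mutant as did not, and almost none made it a step later. Of the 923 probe sets that moved up in wild-type step 1, 475 (51.5%) moved up in arf6 arf8 step 1, and these were 49.8% of the mutant's own 953. In arf6 arf8 step 2 only 8 of the 923 moved up (0.867%, against 0.975% of all kept probe sets), while 198 moved down. Of the 441 that moved down in wild-type step 1, 209 (47.4%) did so in arf6 arf8 step 1 and 8 (1.81%, against 2.24% of all) in step 2.

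Part of what moved in wild-type step 2 had already moved the same way in arf6 arf8 step 1. Of the 524 probe sets that moved up in wild-type step 2, 217 (41.4%, against 5.63% of all) moved up in arf6 arf8 step 1 and 71 (13.5%, against 0.975%) in arf6 arf8 step 2. Of the 497 that moved down in wild-type step 2, 149 (30.0%, against 4.03% of all) moved down in arf6 arf8 step 1 and 191 (38.4%, against 2.24%) in step 2. The 217 and 149 include probe sets that changed in wild-type step 1 as well, such as scpl38, with 2.63 and 2.99 in wild-type and 4.74 in arf6 arf8 step 1. Only 53 of the 217 and 78 of the 149 changed by less than 0.5 in wild-type step 1. Across the 16931 kept probe sets, the changes of arf6 arf8 step 1 correlated with those of wild-type step 1 with r = 0.576 and with those of wild-type step 2 with r = 0.328. The changes of arf6 arf8 step 2 correlated with wild-type step 2 with r = 0.519 and with wild-type step 1 with r = -0.27. These are descriptions across probe sets, which are not independent, and the steps of a genotype share its stage 11-12 array. By signal level, the stage 11-12 array of arf6 arf8 correlated with wild-type stages 1-10, 11-12 and 13-14 with r = 0.827, 0.903 and 0.884, and its stage 13-14 array with r = 0.787, 0.822 and 0.867, so that stage 13-14 of wild-type was the nearest to the last mutant array.

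**Figure D2:**
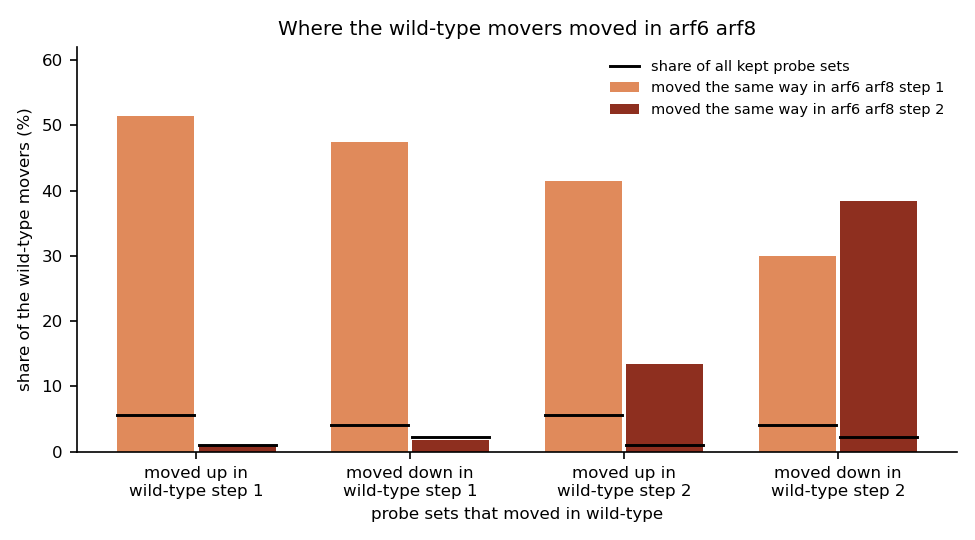
Share (%) of the probe sets that moved in a wild-type step that moved the same way in step 1 (light bars) or step 2 (dark bars) of arf6 arf8, with the share among all kept probe sets as a black line. Movers of wild-type step 1 reach 51.5% and 47.4% in mutant step 1 and stay at 0.867% and 1.81%, near the black line, in mutant step 2.

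The class that moved in wild-type and stayed flat in arf6 arf8 held 256 probe sets, 171 that moved up and 85 that moved down (66.8% up). That share depended on the scale: it was 54.2% with a pseudocount of 16, 85.7% with a pseudocount of 200 and 72.7% after quantile normalization. In 157 the first wild-type move came in step 1 (97 up, 60 down) and in 99 in step 2 (74 up, 25 down). Among all probe sets that moved up in wild-type step 1, 97 of 923 (10.5%) were flat in arf6 arf8, against 50.3% of all kept probe sets with a flat course there, and 350 neither made the same move nor were flat there.

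The 97 that first moved up in step 1 had a median signal of 135 at stage 1-10, 788 at stage 11-12 and 916 at stage 13-14 in wild-type, and of 144, 136 and 137 in arf6 arf8. On all 3 arrays of arf6 arf8, 36 of the 97 stayed below a signal of 100. Their wild-type changes in step 1 ranged from 1.00 to 5.0 with a median of 1.62, and those of the mutant from -0.48 to 0.50 with a median of 0.04. In step 2 of wild-type, 18 moved up again, 11 moved back down and 68 made no further move. The rule's limit ran through a dense range, since the weakest member changed by 1.00 and the nearest non-member by 0.997, and 26 members lay within 0.25 above the limit with 76 probe sets within 0.25 below it.

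Among the genes with the largest changes were a sugar exporter of nectaries, a cytochrome P450 and a terpene synthase. SWEET9, the sucrose exporter of nectaries that is needed for nectar secretion, had signals of 84.7, 1310.2 and 5520.5 at stages 1-10, 11-12 and 13-14 in wild-type and stayed at 44.8, 46.7 and 83.9 in arf6 arf8. Both older wild-type arrays were far above all 3 mutant arrays, and the change in step 1 was 3.34 in wild-type and 0.03 in the mutant. CYP71B31, a cytochrome P450 known for oxidising the floral scent compound linalool, went through 1.6, 839 and 6655 in wild-type against 1.1, 1.4 and 3.9 in arf6 arf8, and all 3 mutant arrays were far below the signal of 100 needed to keep a probe set. Its wild-type change was 4.11 in step 1 and 2.91 in step 2. The terpene synthase gene AT3G25810 (TPS24), whose family makes volatile terpenes, had 11.3, 536.5 and 1949 in wild-type against 8.5, 16.9 and 19 in arf6 arf8.

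XTH19, a xyloglucan endotransglucosylase/hydrolase that cuts and rejoins wall xyloglucan, had signals of 46.7, 342 and 2428 in wild-type, whereas arf6 arf8 had 19.3, 39.3 and 24.1, with every mutant array below the lowest wild-type one. UGT85A3, a UDP-glycosyltransferase, had 76, 647 and 1282 in wild-type against 120, 78.4 and 81.1 in the mutant. AT4G24380 had the brightest stage 11-12 signal among the 8 genes named by size in this set, with 512, 7196 and 4519 in wild-type against 362, 446.5 and 399 in arf6 arf8. AT5G11420 went through 505.5, 5102 and 3856 in wild-type against 198, 132 and 183 in arf6 arf8. It and AT4G24380 peaked at stage 11-12 in wild-type, whereas SWEET9, CYP71B31, AT3G25810 and XTH19 were highest at stage 13-14. AT1G05450, AT1G76240 and AT2G38240, the other genes named by size, moved up by 3.72, 3.31 and 3.16 in wild-type step 1 and changed by 0.29, 0.10 and -0.42 in the mutant.

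**Figure D3:**
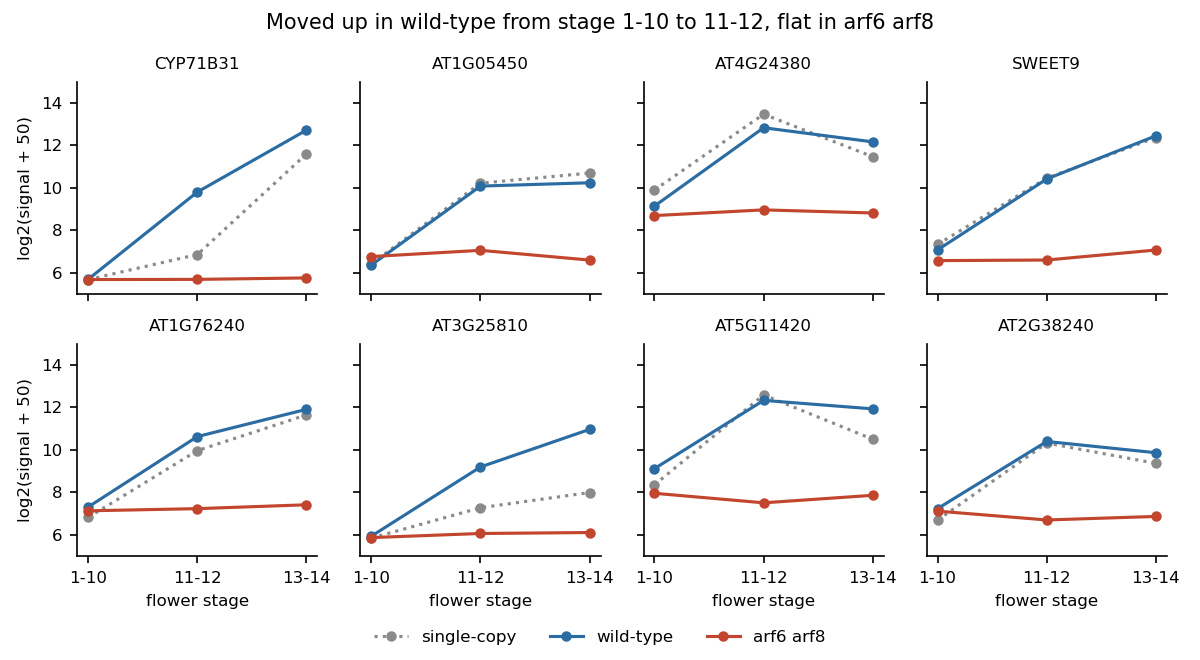
Course of the 8 named genes that moved up most in wild-type step 1 and were flat in arf6 arf8, as log2(signal + 50) by flower stage, 1 array per point, in wild-type (blue), arf6 arf8 (red) and single-copy flowers (grey, dotted). The mutant lines run level while wild-type climbs by 3.16 to 4.11 in step 1, and single-copy flowers climb as well in all 8 panels. For CYP71B31 and AT3G25810 that climb is 1.18 and 1.43, to dim signals of 65.6 and 105.1, too low to count as a move.

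Among the 97, 11 probe sets of 1 gene carry a gene symbol, and those not yet described were weaker. PRA8 and PRA1.B6, members of the prenylated Rab acceptor family of membrane traffic proteins, went through 585, 1467 and 1898 and 169, 542 and 284 in wild-type against 949.8, 982 and 1041 and 81.9, 63.3 and 86.3 in arf6 arf8. NET2D, an actin-binding protein of the pollen NETWORKED family, was high on the wild-type stage 11-12 array only, with 98.6, 381 and 146 in wild-type against 155, 183 and 127.5 in arf6 arf8. AAE16, an acyl-activating enzyme, 4CL8, a 4-coumarate-CoA ligase-like enzyme, and scpl40, a serine carboxypeptidase-like protein, moved up by 1.21, 1.19 and 1.18 in wild-type step 1. GT72B1, a glycosyltransferase, differed from the rest in where it started, since its wild-type signals of 727, 1586 and 1741.5 ended near the level that arf6 arf8 held throughout, 1966, 2248 and 1811.

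Single-copy flowers, whose arrays the classes did not use, gave a separate reading of these probe sets. Of the 97, 65 (67.0%) also moved up in step 1 of single-copy flowers, against 4.98% of all kept probe sets, and 1 (1.03%) was flat there, against 31.9% of all. The 97 were chosen for their wild-type move, however. Of all 923 that moved up in wild-type step 1, 660 also moved up in step 1 of single-copy flowers, so the 97 did not stand out among them. The single-copy array that ended this step had 3′ to 5′ ratios of 1.61 for GAPDH and 7.13 for actin. The wild-type stage 11-12 array had 1.5 and 7.09, against 1.08 and 5.44 for that of arf6 arf8. The part of these ratios in the shared moves was not tested. When single-copy flowers took the place of arf6 arf8 in the same rule, the class held 14 probe sets that first moved up in step 1, against 97, and 115 in all, against 256. Not every part was smaller: 34 first moved down in step 2, against 25, and 1156 moved in single-copy flowers with a flat wild-type course, against 189 for arf6 arf8. Fewer courses were flat in single-copy flowers, 5398 against 8516, and the rule asks for a flat course.

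The 60 probe sets that moved down in wild-type step 1 and were flat in arf6 arf8 were of another kind. Their median wild-type change was -1.12, 46 of the 60 lay within 0.25 of the limit, and 205 probe sets lay within 0.25 on its other side. In single-copy flowers 5 of the 60 (8.33%, against 2.4% of all) moved down in the same step, as did 214 of all 441 that moved down in wild-type step 1. The wild-type stage 11-12 array ends this step and has the highest 3′ to 5′ ratios among the 6 arrays of the course. Its part in these small changes was not tested. The 2 members with a symbol were SIZ1, a SUMO ligase, with 290.5, 59.4 and 136 in wild-type against 301.5, 271 and 358 in arf6 arf8, and PTL, a trihelix transcription factor that limits growth between sepals, with 221, 79.7 and 85.8 and 85.6, 96 and 98.6. PTL stood as low on the youngest mutant array as wild-type did at the older stages.

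AT3G01490 had the largest downward change among the genes named by size, with 723, 247 and 140.2 in wild-type, whereas arf6 arf8 had 317, 278 and 227. The other 7, AT5G55660, AT1G51745, AT5G41190, AT5G46070, AT5G09460, AT1G71810 and AT5G51410, changed by -1.31 to -1.12 in wild-type step 1 and by -0.49 to -0.01 in the mutant.

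In step 2, 74 probe sets moved up for the first time in wild-type and were flat in arf6 arf8, with median wild-type signals of 91.7, 143 and 546 and mutant signals of 93.5, 89.8 and 99.7. SAG29, the sugar exporter also called SWEET15, which marks senescing tissue, had 272, 306 and 1650.5 in wild-type against 273, 256.5 and 298 in arf6 arf8. Only its wild-type stage 13-14 array was high. EXPA4, an expansin that loosens walls, and XTH33 had 1024, 741 and 1762 and 79.4, 110.4 and 427 in wild-type against 843, 1080.3 and 1133 and 84.7, 90.4 and 78.8 in arf6 arf8. UF3GT, which adds a sugar to anthocyanins, had 76.1, 49.8 and 396 in wild-type, whereas arf6 arf8 had 59.6, 56.5 and 43.6.

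CYP71B38, another cytochrome P450, and LCR24, a defensin-like peptide, moved up by 1.37 and 1.58 in wild-type step 2, and the plastid gene ycf4, needed to assemble photosystem I, by 1.06. The largest change among the genes named by size was that of AT2G43590, with 21.3, 43.1 and 663 in wild-type against 8.9, 5.1 and 5.1 in arf6 arf8. AT4G14810, AT5G01740, AT1G18810, AT1G74300, AT5G19880 and AT3G56060 moved up by 1.62 to 2.59 in the same step and changed by -0.35 to 0.35 in the mutant. Single-copy flowers had 37.6, 11.3 and 10.2 for AT2G43590, so its rise was seen on the wild-type stage 13-14 array only. UF3GT, XTH33, LCR24, AT4G14810, AT5G01740, AT1G18810, AT1G74300 and AT3G56060 changed by -0.01 to 0.95 in step 2 of single-copy flowers, short of a move. SAG29, EXPA4, CYP71B38, ycf4 and AT5G19880 moved up in that step. Of the 74, 22 (29.7%, against 10.8% of all) also moved up in step 2 of single-copy flowers, whose stage 13-14 array had 1830 upward moves and a GAPDH 3′ to 5′ ratio of 0.655, below all 6 arrays of the course. Among all 524 that moved up in wild-type step 2, 226 moved up in that step of single-copy flowers.

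The 25 probe sets that first moved down in wild-type step 2 and were flat in arf6 arf8 included a pair of photosystem genes of the plastid genome. psaB, a core protein of photosystem I, had 5763, 6638 and 2371 in wild-type against 7644.5, 7910.2 and 8492 in arf6 arf8. psbC, an antenna protein of photosystem II, had 4535, 4280.2 and 1681 in wild-type, whereas arf6 arf8 had 4908, 4889 and 5272. Among these 6 arrays only the wild-type stage 13-14 array was low for both, but all single-copy arrays lay below the younger wild-type arrays, with 2356, 4227 and 3105.5 for psaB and 1873, 1469 and 2563 for psbC, and neither gene moved down there in step 2 (-0.44 and 0.78). Of the 25, 8 (32.0%, against 6.64% of all) also moved down in step 2 of single-copy flowers, as did 264 of all 497 that moved down in wild-type step 2. Over all 62 kept plastid-encoded genes, 7 moved down and 1 up in wild-type step 2 (median -0.14, against 0.00 over all kept probe sets), and 2 down and 0 up in arf6 arf8 step 2 (median 0.15, against 0.04). scpl47 and scpl46, serine carboxypeptidase-like genes, changed by -1.03 and -1.31 in that step, and scpl47 was low in arf6 arf8 from the start, with 69, 47.7 and 62.1 against 412, 872 and 402 in wild-type. AT2G29290, AT3G23880, AT3G56080 and AT5G54870 changed by -1.33 to -1.02 in wild-type step 2.

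Late moves were all but missing, and moves of arf6 arf8 step 2 were rare among all kept probe sets too (0.975% up and 2.24% down). A single probe set moved in wild-type step 1, stayed below 0.5 in arf6 arf8 step 1 and moved the same way in arf6 arf8 step 2. It was that of THI2.2, a thionin, an antimicrobial peptide, with 423, 149 and 101 in wild-type against 529, 378 and 134.5 in arf6 arf8. Its change was -1.25 in wild-type step 1 and -1.21 in arf6 arf8 step 2. In single-copy flowers, read by the same rule, 9 probe sets were late, but 2955 moved in their step 2, against 544 in that of arf6 arf8.

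The mirror class was larger: 131 probe sets moved in arf6 arf8 step 1, changed by less than 0.5 in wild-type step 1 and moved the same way in wild-type step 2, 53 up and 78 down. It draws on the 1636 probe sets that moved in arf6 arf8 step 1, whereas the late class draws on 544 that moved in step 2. Over the whole course 36 of the 53 and 60 of the 78 ended within 1 on the log2 scale of the wild-type change (67.9% and 76.9%, against 83.9% of all kept probe sets). The median change over the whole course was larger in the mutant, 2.38 against 1.53 in wild-type for the 53 and -2.65 against -2.15 for the 78. For the 53 that moved up, median signals were 228, 267 and 833 in wild-type against 193, 898 and 1486 in arf6 arf8. For the 78 that moved down, they were 1452, 1554 and 203 in wild-type against 1329, 367 and 131 in arf6 arf8.

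Among those that moved up early were a sugar exporter and a vacuolar protease. SWEET11, a sucrose exporter of the phloem, had 1679.9, 2050.4 and 4178 in wild-type against 2012, 5139.7 and 7062 in arf6 arf8. GAMMA-VPE, a vacuolar protease of ageing tissue, had 1307, 1657.5 and 5499 in wild-type, whereas arf6 arf8 had 1354, 5055 and 6967. For both the stage 11-12 array of the mutant lay close to the stage 13-14 array of wild-type. UGT87A2, a UDP-glycosyltransferase, moved up by 1.26 in arf6 arf8 step 1 and by 1.57 in wild-type step 2. AT5G39520 moved up most in wild-type step 2 among the genes named by size, with 147, 138 and 2664 in wild-type against 121, 1772.5 and 3242 in arf6 arf8. AT1G68620, AT1G05340 and AT1G67640 moved up by 3.63, 2.73 and 2.61 in the mutant's step 1 and by 2.60, 2.29 and 1.48 in wild-type step 2. In step 1 of single-copy flowers, 6 of the 53 (11.3%, against 4.98% of all) moved up.

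Those that moved down early included a scent methyltransferase and a flavonoid gene. BSMT1, the methyltransferase that makes methyl salicylate and methyl benzoate, had 1515, 1427.5 and 299 in wild-type against 1554, 371 and 171 in arf6 arf8. CHIL, a chalcone isomerase-like protein of flavonoid synthesis, had 3142.5, 2289.8 and 852 and 2871, 978 and 555.5. The signals of BSMT1 and CHIL at stage 11-12 in the mutant were already near those of wild-type at stage 13-14. SWEET7, another sugar transporter, had 1235, 1549.7 and 226 in wild-type, whereas arf6 arf8 had 986, 345 and 60.9. GH9B13, of a family of glycosyl hydrolases that act on glucans, and CSLA01, of a family that makes mannan, changed by -1.57 and -1.26 in arf6 arf8 step 1 and by 0.21 and 0.31 in wild-type step 1. RXF26 had 5169.8, 4647 and 988 in wild-type against 3836, 138 and 61.6 in arf6 arf8, and AT1G66850 had 16040.5, 12999.7 and 498 and 13943, 1008 and 68.6. AT5G61605 and AT2G42990 changed by -3.15 and -2.99 in arf6 arf8 step 1 and by -4.70 and -3.31 in wild-type step 2.

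The summed signal of markers of the tapetum and of spore-forming cells was lower on each later array of both genotypes. Summed over the 6 kept genes of that list, the signal was 15200, 4523 and 993.5 in wild-type against 10400, 1326 and 955.1 in arf6 arf8, so that the mutant was lower already at stage 1-10. ATA27, an anther beta-glucosidase, carried most of the sum at stage 1-10 with 10042, 2878 and 63.2 in wild-type against 7888.5, 118 and 9.1 in arf6 arf8. At stage 13-14 most of it was EMS1, a receptor kinase that specifies the tapetum, with 831, 552 and 556 and 876, 819.5 and 615. AMS, the master regulator of tapetum development, had 1292, 118 and 29.4 and 609.5, 54.7 and 18.8. Each genotype had 4 of the 6 genes down in step 1, and wild-type had 2 more moves down in step 2 against 0 in the mutant. Single-copy flowers, with a sum of 14520, 1279 and 1344, lost these markers by stage 11-12 as well, and 37 of the 78 early probe sets (47.4%, against 2.4% of all) moved down in their step 1. The part of the tapetum in this class was not tested.

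**Figure D4:**
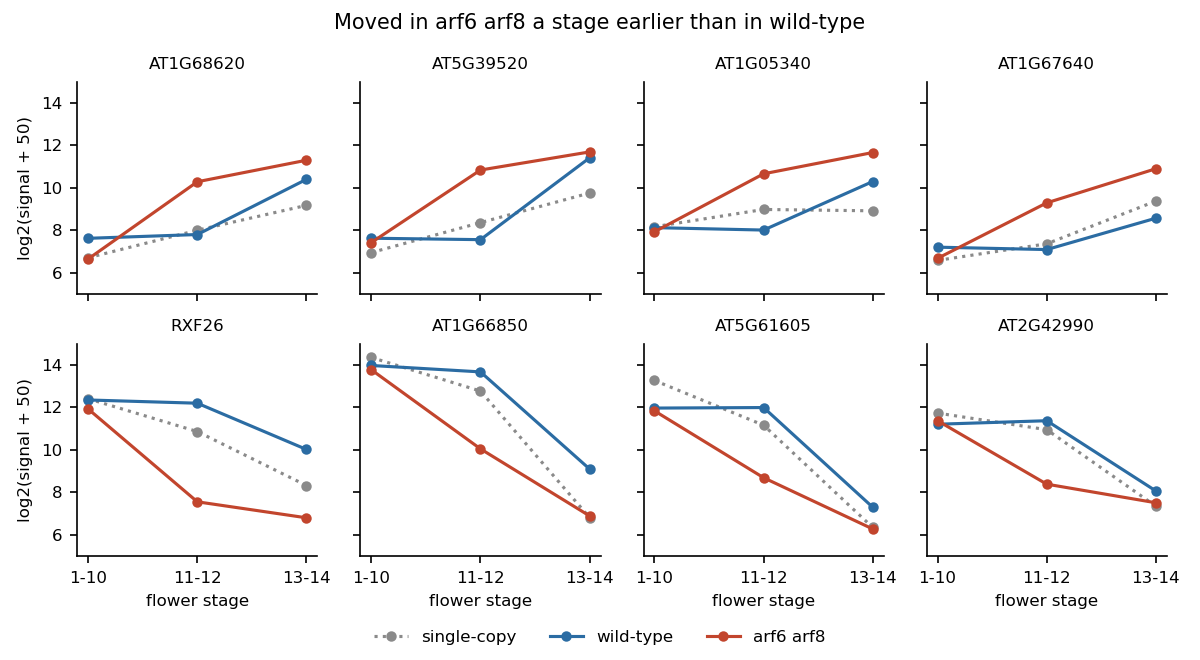
Course of the 4 genes that moved up most (top) and the 4 that moved down most (bottom) in arf6 arf8 step 1 and made the same move in wild-type step 2, as log2(signal + 50) by flower stage, 1 array per point. The mutant (red) bends between stages 1-10 and 11-12 and wild-type (blue) between 11-12 and 13-14. Single-copy flowers (grey, dotted) lie between them at stage 11-12 in every panel.

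Moves seen in arf6 arf8 and not in wild-type, whose course was flat, numbered 189, of which 102 went up and 87 down. In 159 the first move came in step 1 (91 up, 68 down) and in 30 in step 2 (11 up, 19 down). With a pseudocount of 200 the upward share was 71.1% in place of 54.0%. For the 91 that moved up in step 1, median signals were 579, 554 and 596 in wild-type against 470, 1167 and 1512 in arf6 arf8, so these transcripts were present throughout and increased in the mutant with age. For the 68 that moved down, they were 614, 502 and 562 in wild-type against 655, 257 and 241 in arf6 arf8. In step 1 of single-copy flowers, 7 of the 91 moved up (7.69%, against 4.98% of all) and 5 of the 68 moved down (7.35%, against 2.4%). Changes under 0.5 in that step were seen in 59 of the 91 (64.8%) and 25 of the 68 (36.8%), against 72.9% of all kept probe sets.

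The upward set included an auxin-conjugating enzyme, a lipase and an enzyme of leucine breakdown. GH3.3, an enzyme that conjugates auxin to amino acids, had 985, 779 and 813 in wild-type, whereas arf6 arf8 had 578, 1479 and 2071. Single-copy flowers had 441, 1135 and 782, with a change in step 1 of 1.27 beside 1.28 in arf6 arf8. SKP2A, an F-box protein that binds auxin, had 1419, 1328 and 1764 and 1379.5, 2872 and 3373. SDP1, a lipase that mobilises stored oil, had 364, 385.5 and 400.4 and 374, 804 and 1015, and MCCA, a subunit of the carboxylase of leucine breakdown, had 910.4, 852 and 901 and 629, 1731 and 2055. In all 4 the wild-type arrays stayed within a narrow range and both older mutant arrays lay above them. CuAO1, a copper amine oxidase, LPR2, a multicopper oxidase known from roots, BGLU33, a beta-glucosidase, and PGRL1B, a protein of cyclic electron flow in chloroplasts, moved up by 1.32, 1.05, 1.28 and 1.04 in arf6 arf8 step 1. scpl31, a serine carboxypeptidase-like gene, had 229, 199.8 and 294 in wild-type against 223, 901 and 1121.5 in arf6 arf8. AT1G76590 went through 65.5, 489 and 1429 in the mutant against 190, 152 and 185 in wild-type. AT1G54740, AT1G49500, AT3G07870 and AT3G49790 moved up by 1.56 to 1.97 in the same step.

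The downward set was led by a peroxidase. AT1G44970, a class III peroxidase, an enzyme family of the cell wall, had 3012, 3841.5 and 4039.8 in wild-type against 1243, 63.8 and 101 in arf6 arf8, and all 3 wild-type arrays lay far above the older mutant arrays. Its difference in the older-against-young test was -3.68 (SE 0.277, limma adjusted p = 0.152). JMT, which methylates jasmonate, had 1028, 739 and 917 in wild-type, whereas arf6 arf8 had 632, 191 and 132. APL4, a subunit of the enzyme that commits glucose to starch, had 236, 216 and 153 and 544, 227 and 91, and RR16, a response regulator of cytokinin signalling, had 1016, 846 and 801 and 574, 229 and 444. RR16 went partly back up in mutant step 2, by 0.83, whereas JMT and APL4 went on down. AT5G02890, AT4G18970, AT5G54970 and AT5G07030 changed by -1.68 to -1.17 in arf6 arf8 step 1.

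In step 2 of the mutant, ZCF37 moved up from 39.1 to 311 with wild-type at 10.2, 11.8 and 15.2, and the kinase gene ATSIK moved up from 272 to 605. SAH7 was lower on each later mutant array, with 3571, 1827 and 719 against 3062, 3971 and 4334 in wild-type.

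The courses ran in opposite directions for 36 probe sets, 26 in step 1 and 10 in step 2. In step 1, 16 moved up in wild-type and down in arf6 arf8, and 10 the other way. GLC, which is known for seed development after fertilisation, had 774.5, 1852 and 2068 in wild-type against 1297.5, 226 and 303.5 in arf6 arf8, with a test difference of -3.39 (SE 0.257, limma adjusted p = 0.152). AT4G32460 had 1711, 8002.5 and 6099.9 and 1936, 775 and 572, and its difference of -3.47 (SE 0.214, limma adjusted p = 0.132) was among those with the smallest adjusted p of the whole table. The terpene synthase gene AT5G44630 (TPS11) had 1001, 3465 and 3512 in wild-type against 933, 285 and 102 in arf6 arf8. In these 3 genes both older wild-type arrays stood above the youngest and both older mutant arrays below it. AT4G19430 also moved in opposite directions in step 1 but went down in wild-type step 2, with 1595.5, 3969 and 765 against 642, 178 and 70.1. Of the 16, 6 (37.5%, against 4.98% of all) moved up with wild-type in single-copy flowers and 0 moved down. Of all 923 that moved up in wild-type step 1, 660 moved up in single-copy flowers.

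The 10 that moved down in wild-type and up in arf6 arf8 included auxin-inducible genes. WES1 (GH3.5), which conjugates auxin to amino acids, had 2337, 892 and 1107 in wild-type, whereas arf6 arf8 had 1604, 3615 and 5195, with a test difference of 2.60 (SE 0.232, limma adjusted p = 0.173). HAT2, a homeobox gene induced by auxin, had 1142, 403.5 and 664 and 1067, 2216 and 2225. For both genes the youngest arrays of the genotypes were closer to each other than the older ones. HIS1-3, a linker histone induced by drought, had 671, 203 and 371 in wild-type against 237, 1754 and 4816.5 in arf6 arf8. AT1G12010, which encodes ACC oxidase, the last enzyme of ethylene synthesis, had 793, 181 and 100.4 in wild-type against 126, 1269.5 and 2659 in arf6 arf8. AT2G05540 had 2712, 1102 and 1031 and 1124, 7924 and 10246, with a test difference of 4.26 (SE 0.277, limma adjusted p = 0.132). The last 3 genes began lower in the mutant and ended higher, so that the courses crossed between stages 1-10 and 11-12. Single-copy flowers at stage 1-10 had 110 for HIS1-3, 56.9 for AT1G12010 and 591 for AT2G05540, below both genotypes. Their changes in step 1 were 0.46, 0.62 and 1.28. The high start of these 3 genes was thus seen on 1 array only, that of wild-type stage 1-10. Of the 10, 1 (10.0%, against 2.4% of all) moved down with wild-type in single-copy flowers and 1 (10.0%, against 4.98%) moved up with arf6 arf8. Of all 441 that moved down in wild-type step 1, 214 moved down in single-copy flowers.

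In step 2, 6 probe sets moved up in wild-type and down in arf6 arf8, and 4 the other way. RALFL25, a small signalling peptide of the RALF family, had 48.2, 1928 and 4282.5 in wild-type, whereas arf6 arf8 had 266, 1572 and 483, and APPB1 had 47, 2181 and 5299.9 and 183, 1621 and 734.5. Both were moving up in both genotypes until stage 11-12. ADPG1, a polygalacturonase that opens anthers and fruits by dissolving pectin between cells, had 50.3, 1178 and 162.5 in wild-type against 122, 474 and 1069.7 in arf6 arf8, so that a peak at stage 11-12 stood against a steady climb. OCT1, a transporter of organic cations, had 1529, 2751 and 1071 and 1209, 777 and 1669.5.

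**Figure D5:**
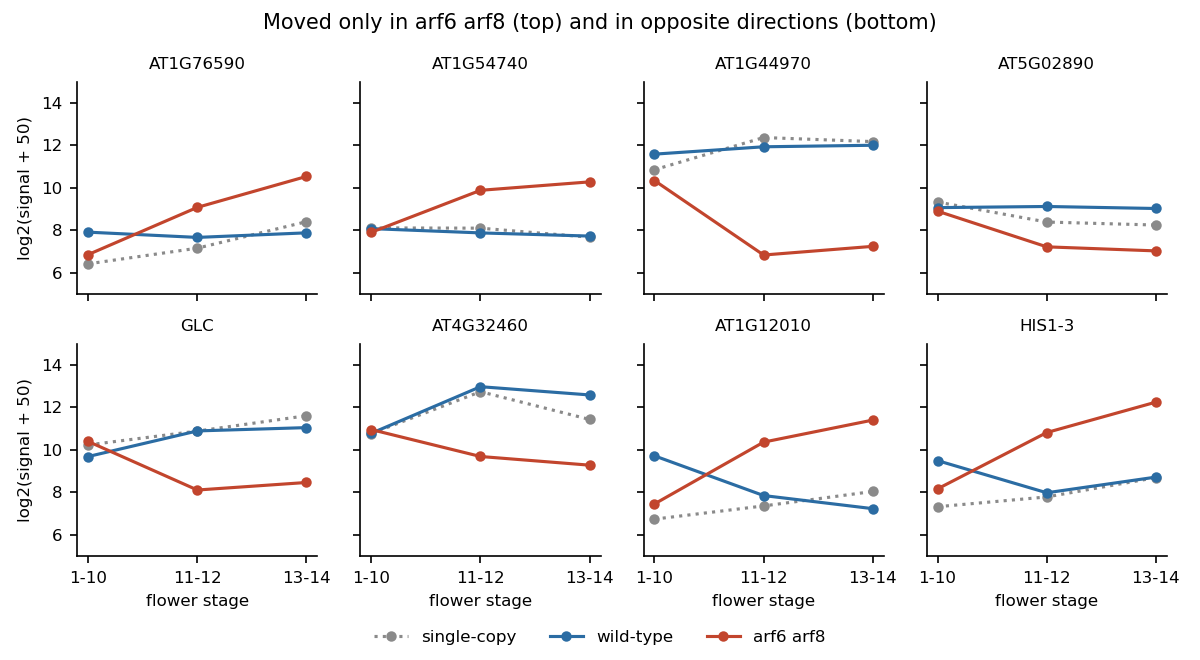
Course of named genes that moved in arf6 arf8 with a flat wild-type course (top) and that moved in opposite directions in the genotypes (bottom), as log2(signal + 50) by flower stage, 1 array per point. In the top row the wild-type line (blue) is level and the mutant (red) moves between stages 1-10 and 11-12. At stage 1-10 the mutant signal is already lower for AT1G76590 (65.5 against 190) and AT1G44970 (1243 against 3012). In the bottom row the lines part or cross between stages 1-10 and 11-12. Single-copy flowers are shown in grey.

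The test's smallest p-values fell on genes already named and on another 4 that moved up in wild-type step 1, AT5G48900, AT1G30795, AT1G75300 and AT3G43270. AT5G48900 had 782, 5866 and 6902 in wild-type against 430.1, 268 and 292 in arf6 arf8, with a difference of -3.49 (SE 0.244, limma adjusted p = 0.132). AT1G30795 had 61.6, 1546 and 2843 and 16.8, 21.3 and 47.3, and AT1G75300 had 76.5, 1552 and 1216 and 118, 65.1 and 9.3. AT3G43270 had 273, 2143 and 1269 and 321, 292 and 167. In all 4 every mutant array lay below both older wild-type arrays.

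A large part of the course was shared: 884 probe sets moved the same way in the same step in both genotypes, 475 up and 209 down in step 1 and 71 up and 191 down in step 2, with 62 of them counted in both steps. RALFL26, another RALF peptide gene, had 46.8, 2361 and 6304 in wild-type, whereas arf6 arf8 had 143, 3208 and 3777. LCR66, a defensin-like peptide, went the other way, with 6651, 93.4 and 42.7 and 2089, 52.7 and 27.1. In step 2 RALFL28 moved up in both, with 13.3, 28.8 and 366 and 18.5, 155 and 1121, and LEA, a dehydrin of drying tissue, moved down, with 1366, 2532 and 48.2 and 1775, 937 and 41.6. The arrays of these 4 genes had the same order in both genotypes, apart from the first 2 mutant arrays of LEA, where wild-type went up by 0.87 and the mutant changed by -0.89. AT3G26110, AT3G05610 and AT5G54095 moved up in step 1 by 4.46 to 4.98 in wild-type and by 3.71 to 3.98 in arf6 arf8. AT5G62080, AT5G07230 and AT4G20420 changed by -5.25 to -5.15 in wild-type and by -4.89 to -4.18 in arf6 arf8. In step 2, AT3G24510, AT2G21655 and AT3G56610 moved up in wild-type by 1.81 to 2.94 and in arf6 arf8 by 1.89 to 2.05, and AT1G23240, AT1G52680 and AT5G53820 changed by -5.43 to -3.54 and by -3.69 to -3.36.

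Lists of genes by family and cell type were read across the course by counts and medians, beside the medians over all kept probe sets given above. Of all kept probe sets, 5.45% moved up and 2.6% down in wild-type step 1, 5.63% and 4.03% in arf6 arf8 step 1, 3.09% and 2.94% in wild-type step 2 and 0.975% and 2.24% in arf6 arf8 step 2, and the counts below are to be read beside these shares. Of 14 kept expansin and expansin-like genes, 5 moved up and 0 down in wild-type step 1, and 2 moved up and 1 down in arf6 arf8 step 1 (medians 0.03 and 0.11). In step 2 the list had 2 up and 1 down in wild-type (median 0.13) and 0 up and 2 down in arf6 arf8 (median -0.46). EXPA8 had 1860, 6739 and 6398 in wild-type against 811, 607 and 263 in arf6 arf8, and EXLA1 had 152, 358 and 2287 and 249, 321 and 543. Both were highest on older wild-type arrays, and no mutant array reached the wild-type stage 13-14 signal of either. EXPB5, by contrast, moved up in step 1 in both genotypes, by 2.61 and 1.94, and EXPA24 peaked at stage 11-12 in both, with 20.9, 1088 and 156 and 114, 574 and 18.4. Among 7 kept XTH genes, 1 moved up in wild-type step 1 and 2 in step 2, 0 moved up in either step of arf6 arf8, and XTH16 moved down in both of its steps, with 2074, 1863 and 1054 in wild-type against 2605.5, 758 and 285 in the mutant.

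Of 16 SWEET sugar transporter genes, 5 moved up and 1 down in wild-type step 1 and 2 up and 3 down in arf6 arf8 step 1, and step 2 had 3 up and 4 down in wild-type and 0 up and 3 down in the mutant. SWEET14 had 184, 2196 and 1324 in wild-type, whereas arf6 arf8 had 124, 55.1 and 95.2, and SWEET13 had 233, 1517 and 1637 and 302, 620 and 429. SWEET13 thus made part of the wild-type increase in the mutant, 0.93 against 2.47, whereas SWEET14 changed by -0.73 there. AtVEX1 (SWEET5), which marks the vegetative cell of pollen, peaked at stage 11-12 in both genotypes, with 319, 1627 and 82.4 and 664.5, 1440.2 and 152.5.

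Hormone lists are short, and their counts rest on a few genes. Of 6 kept auxin response genes, 3 moved up and 1 down in arf6 arf8 step 1 (median 0.90), and 0 moved up and 2 down in wild-type step 1 (median -0.55). GH3.17 was higher on each later array in both genotypes, with 232, 444 and 1722 in wild-type against 154, 303 and 555 in arf6 arf8. Of 4 gibberellin genes, 1 moved up in arf6 arf8 step 1 (median 0.60) and 0 in wild-type (median -0.39): the gibberellin receptor gene GID1A had 471.5, 284 and 411 in wild-type against 554, 1346 and 2190.3 in arf6 arf8. The receptor genes GID1B and GID1C changed by 0.41 and 0.79 in arf6 arf8 step 1, short of a move, and SLY1, an F-box protein of the same pathway, was level, with 690, 662 and 745 and 743, 734 and 844. Of 5 jasmonate genes, JMT alone moved, and MYC3, a transcription factor of the jasmonate response, had 505, 239 and 325 in wild-type, whereas arf6 arf8 had 400, 478 and 819. JRG21, a jasmonate-regulated gene, had 158, 339 and 583 and 56.7, 136.5 and 120.1.

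Of 13 kept regulators of floral organ identity and growth, 2 moved up and 1 down in wild-type step 1, and 0 moved in arf6 arf8 step 1 with 1 down in its step 2. BPEp, a bHLH transcription factor that limits petal size, had 429, 2463 and 1327 in wild-type against 739, 839.8 and 552 in arf6 arf8. CES, a bHLH factor of the carpel, had 592, 2114 and 2136 and 573, 984 and 444. Both older wild-type arrays stood above every mutant array for these 2 genes.

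Of 7 pollen and sperm cell markers, 4 moved up in wild-type step 1 and 3 in arf6 arf8 step 1 (medians 1.65 and 1.35), against 5.45% and 5.63% of all. In step 2, 1 moved up and 1 down in wild-type (median -0.03), and 0 up and 1 down in arf6 arf8 (median -0.35). Their summed signal was 3570, 7276 and 7800 in wild-type against 4102, 6517 and 4946 in arf6 arf8. ANX2, a receptor kinase of pollen tubes, had 17.5, 243 and 678 in wild-type against 22.8, 429 and 379.9 in arf6 arf8, and ACT12, a pollen actin, had 182, 681 and 391 and 122, 390.2 and 84.9. TUA1, a pollen tubulin, had 532, 1235 and 1618 and 763, 2015 and 1606, and ACT11 had 903, 1829.8 and 1373 and 1114, 864 and 414. MGH3, a histone H3 of sperm cells, was the member that moved up in wild-type step 1 only, with 86.4, 483 and 159 and 95.9, 167 and 11.1, a change of 1.97 against 0.57. ACT11 and TUB9 did not move in either genotype in that step, with changes of 0.98 and 0.49 in wild-type against -0.35 and 0.32 in the mutant. LCR72, a defensin-like peptide, had 88.6, 2844 and 5544 in wild-type against 250.2, 1839 and 781 in arf6 arf8 and so kept climbing in wild-type after the mutant had turned.

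Of 5 cell division genes, 2 moved down in wild-type step 1 (median -0.92) and 3 in arf6 arf8 step 1 (median -1.07). The histone gene HTB2 had 1728, 759 and 778 in wild-type against 1340.4, 443 and 356 in arf6 arf8. Of 16 nuclear photosynthesis genes, 0 moved in either wild-type step and 1, PGRL1B, moved in arf6 arf8, and their summed signal was 81370, 85370 and 76570 in wild-type against 89710, 97780 and 101900 in the mutant. Of 5 senescence and recycling genes, 1 moved up in wild-type step 1 and 2 in step 2, and 1 in arf6 arf8 step 1 and 0 in step 2. ATG8H, an autophagy gene, moved up in step 1 in both, with 388, 1219.7 and 1495.5 and 585, 1375 and 1385. Of 9 genes of the ovule and female gametophyte, 1 moved down in step 1 of each genotype, DD46, with 1254, 150.1 and 119 and 784, 89 and 129.

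Of 14 cytochrome P450 genes, all named CYP71B except CYP78A9, 1 moved up in wild-type step 1 and 4 in step 2, against 1 and 1 in arf6 arf8. CYP71B27 had 17.8, 127 and 660 in wild-type against 23.2, 10.7 and 55.9 in arf6 arf8, and CYP71B23 had 44.4, 22.2 and 105 and 72.9, 240 and 666, so that related genes took opposite sides. Of 23 serine carboxypeptidase-like genes, 4 moved up and 1 down in wild-type step 1, and 2 up and 2 down in arf6 arf8 step 1. scpl35 had 424, 2461 and 2954 in wild-type against 970.2, 1232 and 768 in arf6 arf8, whereas scpl38 moved up in both, with 8.4, 311 and 2815 and 24.6, 1947 and 3119.9. Of 9 RALF-like genes, 2 moved up in step 1 of each genotype, and 3 moved up in step 2 of wild-type and 1 in that of arf6 arf8. Of 5 flavonoid genes, 2 moved up in wild-type step 2 and 1 in arf6 arf8 step 2 (medians 1.3 and -0.14). Of 3 kept class III peroxidases of the list, which does not hold AT1G44970, 2 moved up in wild-type step 2 and 1 in arf6 arf8 step 2. AT5G64120 had 40.3, 53 and 639.6 in wild-type against 2.1, 88 and 119 in arf6 arf8. The pectin list kept 3 genes, PMEPCRF, PME61 and ATPMEPCRB, and does not hold ADPG1, which moved in both wild-type steps. Of these 3, 0 moved in wild-type and 1 moved up in arf6 arf8 step 1. It was PMEPCRF, a pectin methylesterase, with 272, 414 and 578 in wild-type against 501, 1312 and 1738 in arf6 arf8. Of 3 secondary wall genes, 1 moved down in arf6 arf8 step 1 and 0 moved in wild-type. Of 6 defensin-like LCR genes, 1 moved up and 1 down in step 1 of each genotype. Of 6 WRKY genes 1 moved, in wild-type step 2, and of 31 UDP-glycosyltransferase genes 3 moved up and 2 down in wild-type step 1 and 1 up and 1 down in arf6 arf8 step 1, to be read beside 5.45% up and 2.6% down and 5.63% and 4.03% of all kept probe sets.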

How the data were processed

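Transcripts were measured with 1 oligonucleotide array per sample, from about 7 µg of total RNA extracted with TRIzol and labelled as biotinylated cRNA, per the labels' protocols. The authors' deposited values are signal intensities on a linear scale, 1 per probe set and array, made with MAS5 per the submitters' processing notes. The sources used here give neither its version nor a scaling step. The deposited values look globally scaled: with 2% of the values trimmed from either end, every array had a mean of 500.03 or 500.04. Intensities have no read depth, and precision is limited by how few arrays there are.

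Here 64 control probe sets were left out and values were transformed as log2(signal + 50). Low signals compress on this scale, so it understates the change of dim genes. The 2 genotypes were compared over 3 stages by the limits given with the results. The course difference was fitted in R 4.3.3 by lmFit and eBayes(trend) of limma 3.58.1, as stage plus genotype plus genotype by older stage. The fit was also run on simulated data in which the genotype difference was the same at both older stages. In the real data the residual mixes array error with a genotype difference that changes between the older stages. The simulation left such a difference out, so it does not show how the test behaves on these arrays. Tables were made with Python 3.11.15, pandas 2.3.3 and numpy 2.4.6.

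Genes were named through the platform's probe table (14016 probe sets, 13513 with 1 gene, 503 with several, 8730 probe sets neither control nor listed), joined by locus to the RefSeq table of assembly TAIR10.1. Roles of loci without a symbol are left out, except a few given with the series. Among probe sets of 1 gene with a signal of 500 or more, the text names the largest changes of each class (8 per direction and first step for wild-type-only, 6 per direction for mutant-only, 4 for the others), the 10 smallest p-values of the course test and up to 4 members of each list. All class members that carry a symbol were added after their values had been seen. Members, classes and lists were chosen with earlier results of these data known, and some lists were trimmed or added after values had been seen. Titles name the single-copy plants arf6/arf6 ARF8/arf8, whereas the design text names ARF6/arf6 arf8/arf8. Promoter sequences were not used here. The result of 1 gene family list is not reported here.

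Alternatives were other pseudocounts, quantile normalization, other limits for a move, for brightness and for a flat course, other filters, a linear course, eBayes without trend and fits over 9 flower arrays with each left out in turn, except the stage 1-10 arrays that the contrast needs.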

Additional observations from a re-analysis of the deposited data

Results flagged for a closer look

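The 36 probe sets that moved in opposite directions in the 2 genotypes stand out because each genotype's change passed the size limit with the opposite sign. The difference of a single step was not tested, since each stage has 1 array per genotype. Expressed as the change in arf6 arf8 minus the change in wild-type on the log2 scale, step 1 gave -3.49 for GLC, -3.46 for AT4G32460, -3.29 for AT5G44630 and -2.89 for AT4G19430. In the other direction it gave 4.78 for AT1G12010, 4.16 for HIS1-3 and 4.03 for AT2G05540, and step 2 gave 3.63 for ADPG1. In the test of older against young stages, none of these 8 genes passed (limma adjusted p from 0.132 to 0.955). With the course taken as linear, 3 of the 8 passed in limma, AT1G12010 (adjusted p = 0.0207), AT5G44630 (0.0231) and HIS1-3 (0.0477). That fit called 347 of all 16931 kept probe sets (2.05%). The 8 were picked for large differences on the same arrays that both fits used, so the passes are not separate support for them.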

How the results depend on the processing

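With 1 array per stage and genotype, none of the counts by size has an error, and their limits matter. Beside the 256 probe sets that moved in wild-type and were flat in arf6 arf8, there were 95 with a move of at least 1.5, 150 with a brighter array of 500 or more and 474 with flat taken as below 0.75. The 189 that moved only in arf6 arf8 became 114 with a pseudocount of 200, 34 with a move of at least 1.5 and 413 with the wider flat limit. The 884 that moved alike became 540 with a pseudocount of 200, 462 with a move of at least 1.5 and 533 with a brighter array of 500 or more. The 131 early ones became 85 with a pseudocount of 200 and 51 with a move of at least 1.5, and the 36 opposite ones 13 and 4. The single late one became 0 with either stricter limit and 2 with the wider flat limit, and a pseudocount of 200 gave 1 that was another probe set. The other alternatives left each of these counts within 1.5 times, although 116 of the 256 wild-type-only probe sets remained in that class with a pseudocount of 200. The alternatives for the early and opposite counts were chosen after seeing the data. The count of 0 in the course test became 347 with a linear course. It stayed 0 in the other fits with all arrays, and ranged from 0 to 241 when single-copy flowers were added and 1 array at a time was left out: leaving out the stage 11-12 and 13-14 arrays gave 77 and 28 for wild-type and 241 and 91 for arf6 arf8, and leaving out any single-copy array gave 0. The contrast cannot be had without a stage 1-10 array of wild-type or arf6 arf8. In those 4 fits a genotype keeps a single older array, which is assumed to vary like the other genotypes. Over pseudocounts and quantile normalization, 49 of 228 step changes of named genes and 6 of 300 list medians shifted by 0.5 or more, and 0 of the step changes turned sign. The causes were not tested. No paired analysis was possible because each group holds a single array, so a replicate number is only a name.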
